A study of Rattus norvegicus with 25 samples.

Results

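The 7 genes Ppp1r1b, Adora2a, Drd2, Rgs9, Pde10a, Prkcd and Six3 were followed in bulk RNA sequencing of tissue punches from the basolateral amygdala (BLA) and dentate gyrus (DG) of rats. They were taken as the rows whose gene name equaled one of these symbols, ignoring case (Drd2 is written DRD2 in the files), and each matched 1 of the 26312 gene identifiers. They were chosen because they mark striatal and central amygdala neurons, and the question was how much of such neighboring tissue each BLA punch held and whether this differed between the groups. All animals were adult male wild-type Sprague-Dawley rats. Control rats were not exposed to the stressor, and stress-exposed rats underwent 3 h of immobilization with predator scent, after which those with low and with high anxiety-like behavior formed the stress-low and stress-high groups. Brains were taken on day 9 after stress, and 7 to 9 punches of 0.75 mm diameter from 200 μm sections of the left hemisphere, from -2.9 (anterior) to -5.28 (posterior) relative to Bregma, were pooled for 1 library per animal and region. The BLA was represented by 7 control, 3 stress-low and 3 stress-high animals (13 libraries) and the DG by 6, 3 and 3 (12 libraries), with 11 animals measured in both regions. The library name of BLA animal 35 gave control and its treatment field gave stress exposure, and it was taken as control. Library depth, as the sum of expected counts, ran from 12709493 to 22801247 for BLA and from 11656439 to 19477932 for DG libraries.

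The BLA lies at the end of the external capsule, lateral to the central amygdala and below the tail of the striatum, and thin clusters of intercalated cells line its borders. BLA principal cells are glutamatergic, while the projection neurons of the striatum and the central amygdala, and the intercalated cells, are GABAergic. Striatal projection neurons read dopamine and adenosine through cAMP. Adora2a (an adenosine receptor) and Drd2 (dopamine D2 receptor) sit on the indirect-pathway neurons and act in opposite directions on adenylyl cyclase. Ppp1r1b (DARPP-32) turns protein kinase A activity into inhibition of protein phosphatase 1, Pde10a (a phosphodiesterase) breaks down cAMP and cGMP, and Rgs9 shortens signaling of G proteins in the striatum. Prkcd (protein kinase C delta) defines a class of neurons in the lateral division of the central amygdala and Six3 is a homeobox factor of ventral forebrain development. These genes are not all private to those cells: Ppp1r1b is also made by some BLA neurons, and Pde10a is found at lower levels outside the striatum. In bulk samples, fewer cells of a type and less RNA per cell cannot be told apart, and no library of pure striatum or central amygdala was analysed here, so that a level cannot be turned into a share of tissue.

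The DNA before the start is shown for 3 of the genes whose levels followed that of Adora2a across the BLA libraries. Prkcd and Pde10a also followed it, with smaller slopes, and their windows are not shown. The sequences are from RefSeq (build GRCr8) and run 5′ to 3′ over the 250 bases before the annotated start. The files were made on another build, and 5 of the 7 genes (Drd2, Pde10a, Prkcd, Rgs9 and Six3) matched the promoter table. Capitals mark GGGCGG (the GC box bound by Sp1) and CCAAT, on either strand. The Drd2 window is chr8:58605153-58605402 on the + strand, the Rgs9 window chr10:94770388-94770637 on the - strand and the Six3 window chr6:14796257-14796506 on the - strand.
Drd2: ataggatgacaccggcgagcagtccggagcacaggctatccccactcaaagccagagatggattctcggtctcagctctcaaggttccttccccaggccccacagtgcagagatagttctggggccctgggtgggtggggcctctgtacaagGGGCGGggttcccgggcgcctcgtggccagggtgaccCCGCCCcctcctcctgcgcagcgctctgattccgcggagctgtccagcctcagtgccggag
Rgs9: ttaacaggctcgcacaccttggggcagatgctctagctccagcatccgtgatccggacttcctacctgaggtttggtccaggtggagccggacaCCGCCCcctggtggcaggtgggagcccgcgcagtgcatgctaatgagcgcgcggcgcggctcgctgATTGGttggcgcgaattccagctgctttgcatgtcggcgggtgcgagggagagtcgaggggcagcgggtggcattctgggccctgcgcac
Six3: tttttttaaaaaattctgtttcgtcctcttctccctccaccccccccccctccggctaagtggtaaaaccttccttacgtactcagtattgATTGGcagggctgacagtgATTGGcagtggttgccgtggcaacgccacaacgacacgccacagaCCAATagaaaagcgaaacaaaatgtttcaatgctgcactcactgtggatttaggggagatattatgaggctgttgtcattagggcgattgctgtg
The Drd2 window held 2 GC boxes and no CCAAT, that of Rgs9 1 of each, and that of Six3 3 CCAAT and no GC box. GC content was 66.0% for Drd2, 65.6% for Rgs9 and 48.0% for Six3, beside a median of 51.2% over all 33469 promoters. A GC box occurred in 4 of the 5 genes and in 30.5% of all promoters, and CCAAT in 2 of the 5 genes and in 34.0% of all promoters. The counts are of genes and the percentages of single promoters. Pde10a had a window with a GC box and another without, and was counted among the 4. Neither motif was found in all 3 windows, and a match of letters is a description and not a binding site.

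The adenosine and dopamine receptor genes set 3 BLA libraries apart. The TPM of Adora2a, a level corrected for gene length and for the size of the library, was 50.2, 3.81, 2.69, 1.65, 1.75, 1.85 and 21.1 in control animals 2, 14, 17, 27, 28, 32 and 35. It was 2.29, 27.8 and 4.74 in stress-low animals 22, 30 and 34, and 4.48, 3.36 and 2.59 in stress-high animals 7, 19 and 20. Control animals 2 and 35 and stress-low animal 30 were the high libraries, no stress-high library was among them, and the ranges of all 3 groups overlapped. The 3 levels were 19.0, 8.0 and 10.5 times the median of the other 10 libraries (2.64 TPM).

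Drd2 picked out the same 3 libraries. It reached 16.6, 2.91, 2.56, 2.82, 2.27, 2.94 and 7.70 TPM in the controls (same order of animals), 1.82, 14.4 and 3.21 TPM in stress-low and 3.25, 3.62 and 2.88 TPM in stress-high. The levels in animals 2, 30 and 35 were 5.74, 4.96 and 2.66 times the median of the other 10, and the other 10 spanned only 1.82 to 3.62 TPM. Adora2a gained more than Drd2 in each of the 3 libraries, although both mark the same striatal neurons.

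The signaling genes downstream of these receptors followed with smaller ratios. Ppp1r1b, the substrate of protein kinase A, was at 231, 53.3, 67.6, 57.8, 46.4, 42.7 and 123 TPM in the controls, 69.2, 103 and 55.1 TPM in stress-low and 59.0, 56.4 and 54.95 TPM in stress-high. Animals 2, 30 and 35 were again the highest, at 4.15, 1.86 and 2.21 times the median of the others (55.7 TPM). Its level in the other 10 libraries was 42.7 to 69.2 TPM, the highest of the 7 genes per length. Rgs9, the regulator of G protein signaling, was at 26.6, 6.13, 3.30, 6.24, 5.38, 5.09 and 14.3 TPM in the controls, 2.45, 15.6 and 6.07 TPM in stress-low and 7.68, 5.40 and 10.8 TPM in stress-high. It was 4.64, 2.72 and 2.49 times the median of the others in animals 2, 30 and 35. It also varied 4.41 times between the lowest and highest of the other 10, from animal 22 to animal 20.

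Pde10a, the phosphodiesterase, hardly varied. Its levels were 40.4, 28.9, 29.2, 24.1, 24.8, 28.4 and 33.7 TPM in the controls, 29.8, 31.4 and 24.7 TPM in stress-low and 24.3, 28.0 and 29.3 TPM in stress-high. Animals 2, 35 and 30 were still the 3 highest in that order, but at only 1.43, 1.19 and 1.11 times the median of the other 10. The whole range over 13 libraries was 1.68 times, against 30.4 times for Adora2a.

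The central amygdala kinase Prkcd marked out animal 2 alone. Its levels were 26.1, 13.9, 9.97, 10.9, 11.7, 12.9 and 13.4 TPM in the controls, 13.1, 15.2 and 15.5 TPM in stress-low and 13.5, 10.5 and 13.2 TPM in stress-high. Animal 2 was at 2.01 times the median of the other 10, while animals 30 and 35 were at 1.17 and 1.03 times and lay inside their range. The homeobox gene Six3 had 18.6, 8.12, 3.93, 3.31, 7.10, 6.04 and 18.2 TPM in the controls, 2.56, 16.6 and 5.77 TPM in stress-low and 6.42, 6.95 and 11.1 TPM in stress-high. Animals 2, 30 and 35 were at 2.98, 2.66 and 2.92 times the median of the others and so were nearly level with each other, unlike for Adora2a. Expected counts behind these values were lowest for Six3 (21 to 211 in the BLA) and were at least 41 for each of the other genes in each BLA library.

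**Figure D1:**
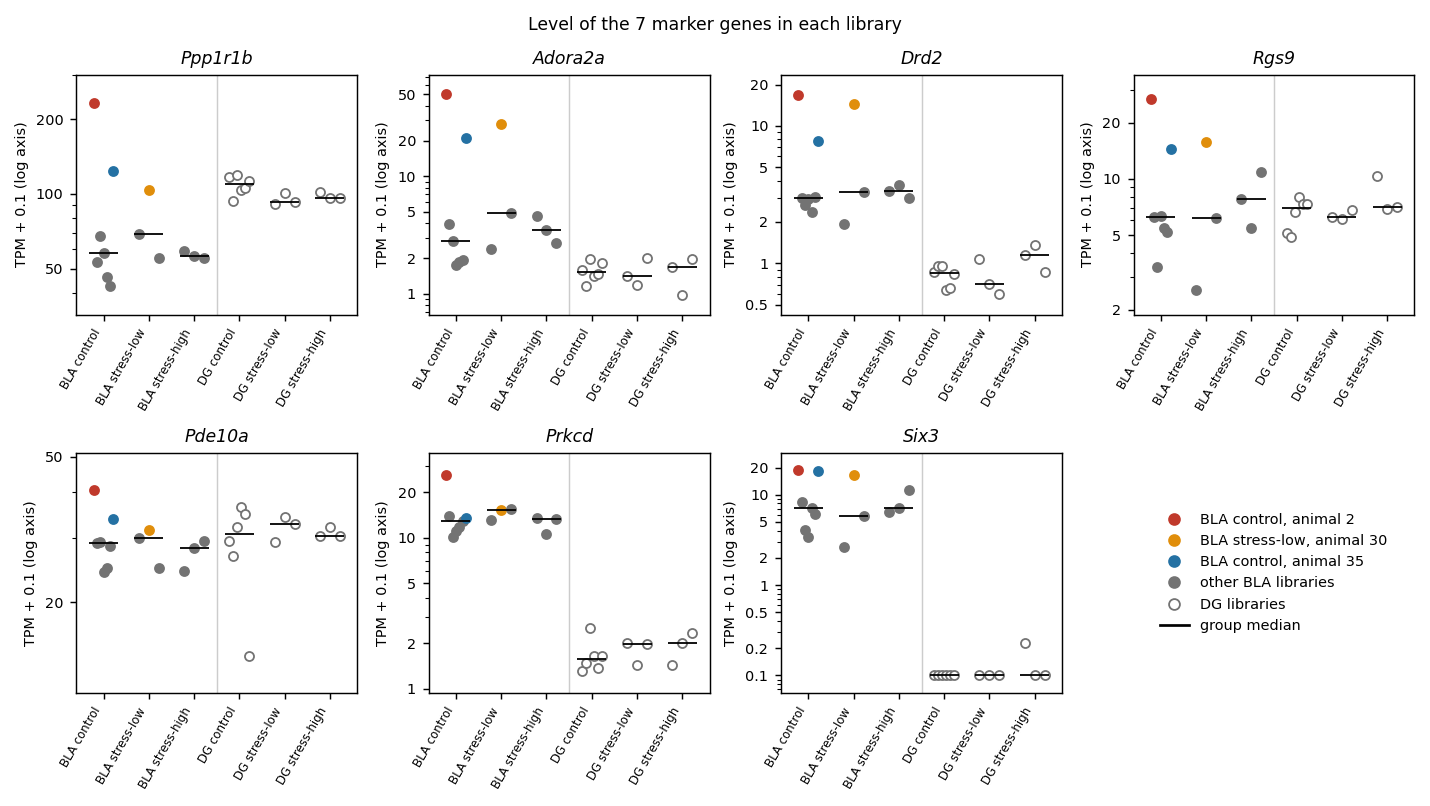
Level of each of the 7 genes in each library (TPM + 0.1, log axis, a different range in each panel), by region and group, with the group median as a line. Animals 2, 30 and 35 of the BLA (colored) lie above the other 10 BLA libraries for 6 of the genes, and for Prkcd only animal 2 does.

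A marker index gave the mean, over the 7 genes, of log2(TPM + 0.1) relative to the mean of each gene over the 13 BLA libraries. It was 1.68 in animal 2, 1.07 in animal 30 and 0.91 in animal 35, that is, 3.21, 2.10 and 1.88 times the average level. The other 10 libraries lay between -0.73 (stress-low animal 22) and -0.07 (stress-high animal 20). By group the index was 0.04 ± 0.90 (SD, n = 7) in controls, 0.05 ± 0.92 (SD, n = 3) in stress-low and -0.15 ± 0.10 (SD, n = 3) in stress-high animals. The group means were within the spread of the libraries. The stress-high group was the narrowest, with a range of -0.26 to -0.07, and held none of the 3 high libraries, which were 2 of 7 controls and 1 of 3 stress-low animals. The library names also mark each control as low or high. All 3 high libraries carry the low mark, and no library marked high was among them. Control animals 27 (-0.59) and 28 (-0.52) carry the low mark too and were not high. Whether the marker level goes with this mark was not tested.

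**Figure D2:**
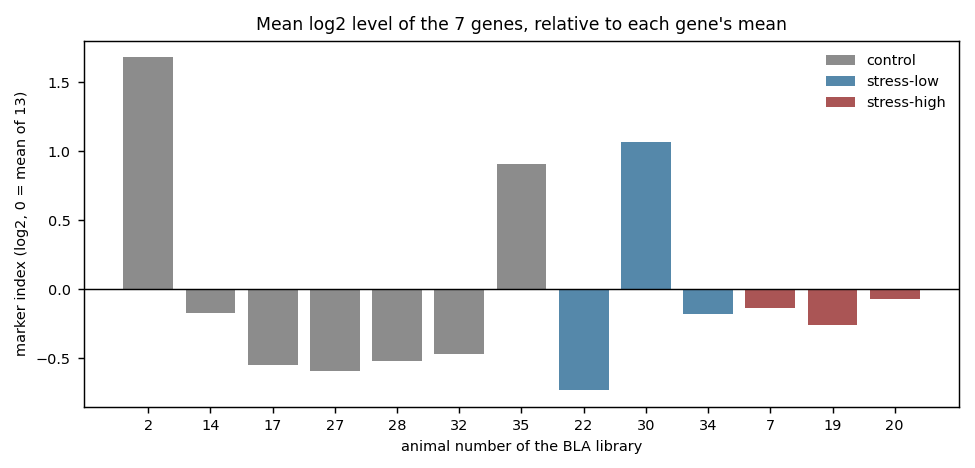
Marker index of each BLA library (log2 scale, 0 is the mean of the 13 libraries), with bars colored by group and labeled by animal number. Animals 2 (1.68), 30 (1.07) and 35 (0.91) are the only libraries above 0.

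The DG of the same animals served as the reference. There Adora2a was at 0.870 to 1.91 TPM, Drd2 at 0.50 to 1.26, Rgs9 at 4.81 to 10.3, Prkcd at 1.21 to 2.42 and Ppp1r1b at 90.8 to 119 TPM over 12 libraries. In animals 2 and 35 the DG levels of Adora2a were 1.49 and 1.72 TPM and those of Drd2 0.760 and 0.730 TPM, inside the range of the other DG libraries. The high levels of these animals were thus seen in their BLA libraries and not in their DG libraries. The DG of animal 30 was not analysed here. Pde10a was at 26.7 to 36.4 TPM in 11 DG libraries and at 14.2 TPM in animal 35, whose DG library also stood apart on the first principal component of the DG (score 56.0, against -13.7 to 2.28 for the others). For animal 35 the comparison of the regions thus rests on a DG library that stood apart.

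In a paired fit over the 11 animals with both regions (edgeR's quasi-likelihood test with the animal as a block, Benjamini-Hochberg adjustment over 14353 genes), 4 of the 7 genes were higher in the BLA and 1 was lower. Over all genes 40.8% were called higher and 37% lower in the BLA, so that a called difference is common between these regions. Prkcd was 3.06 higher on the log2 scale (SE 0.14, adjusted p = 1.25e-11), at 14.0 ± 4.32 TPM in the BLA and 1.70 ± 0.404 TPM in the DG (SD, n = 11). Drd2 was higher by 2.27 (SE 0.24, adjusted p = 3.11e-07) and Adora2a by 1.82 (SE 0.37, adjusted p = 0.000352), and each of the 11 animals had more of Prkcd, Drd2 and Adora2a in its BLA. Without animals 2 and 35 the differences were still called, at 1.88 for Drd2 and 1.15 for Adora2a.

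Six3 gave the sharpest contrast between the regions. It had 968 counts in the 11 BLA libraries and 1 count in the 11 DG libraries, a ratio of 965 at equal depth (exact 95% interval 173 to 38200, counting error only). It was at 0 counts in 11 of all 12 DG libraries. Each BLA library thus held at least 21 counts of a gene that was not detectable in most DG libraries at this depth.

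Ppp1r1b went the other way. It was 0.45 lower on the log2 scale in the BLA (SE 0.14, adjusted p = 0.0104, edgeR), at 78.1 ± 55.2 TPM against 103 ± 10.1 TPM in the DG (SD, n = 11), and only animals 2 and 35 had more in the BLA. Without these animals it was lower by 0.66 (SE 0.067, adjusted p = 1.61e-07). Rgs9 (0.13, SE 0.24, adjusted p = 0.638, 95% interval -0.38 to 0.64) and Pde10a (0.01, SE 0.10, adjusted p = 0.913, 95% interval -0.21 to 0.23) did not pass the test. Without animals 2 and 35 Pde10a was called lower in the BLA, by a log2 difference of -0.14 (SE 0.050, adjusted p = 0.018). DG and BLA libraries differed in the effective lengths used for TPM (for Prkcd medians of 2664 bases in the BLA and 2444 in the DG), so that region and the way each set was sequenced and quantified cannot be told apart. On the TPM scale (limma) 42.4% of the called genes were higher in the BLA, against 52.5% in the count fit, and the 5 genes called above were called in the same direction on both scales.

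No difference between the groups was detected in these genes. With 0% of 15311 genes called in each of the 4 comparisons of BLA groups (edgeR's quasi-likelihood test, adjusted p under 0.05), none of the 7 passed in any. At an unadjusted p under 0.05 there were 365 genes between control and stress-low, 356 between control and stress-high, 248 between stress-low and stress-high and 453 between control and stress-exposed, and DESeq2 called 0, 2, 1 and 0. With limma on log2(TPM + 0.1) the counts were 1, 0, 1 and 1, and on log2(TPM + 1) 0 in all 4. The 7 genes had an adjusted p of 0.828 or more under every setting run.

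The intervals of the group differences were widest for Adora2a. Adora2a was at 11.9 ± 18.3 TPM in controls (SD, n = 7), 11.6 ± 14.1 TPM in stress-low (n = 3) and 3.48 ± 0.95 TPM in stress-high animals (n = 3). The log2 difference of stress-high from control was -1.63 (95% interval -3.97 to 0.72). Without animals 2, 30 and 35 it was 0.61 (-0.10 to 1.32), so that the sign rested on these libraries. Drd2 went from -0.65 (-2.04 to 0.74) to 0.28 (-0.13 to 0.70) in the same comparison, and Ppp1r1b from -0.57 (-1.46 to 0.32) to 0.10 (-0.20 to 0.40). Six3 went from -0.18 (-1.31 to 0.96) to 0.48 (-0.20 to 1.16). Rgs9 went from -0.21 (-1.39 to 0.97) to 0.60 (0.03 to 1.16). This last interval lay above 0, but Rgs9 did not pass after adjustment over all genes. The interval of Pde10a was narrow with all libraries, at -0.11 (-0.35 to 0.13), and that of Prkcd was -0.13 (-0.55 to 0.29).

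Between the stress groups the picture was alike. Adora2a was -1.64 (95% interval -4.25 to 0.97) in stress-high relative to stress-low and 0.01 (-0.88 to 0.89) without animals 2, 30 and 35. Six3 and Rgs9 were near 0 with all libraries, at -0.02 (-1.34 to 1.31) and 0.01 (-1.38 to 1.40). Without the 3 libraries they were 0.91 (0.01 to 1.82) and 0.86 (0.12 to 1.61), with adjusted p of 1.0 for both over all genes, and with only 2 stress-low libraries left. The stress-high group and the control animals with numbers up to 20 shared a span of animal numbers, while all stress-low numbers were above 20. Within the controls Adora2a was at 2.69 to 50.2 TPM in the 3 animals up to number 20 and at 1.65 to 21.1 TPM in the 4 above it, 1 high library falling on each side.

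Exact two-sided permutation tests of the TPM values over libraries were also run for the 7 genes in the 4 comparisons (28 tests). The lowest p was 0.30, for Ppp1r1b and Prkcd between stress-low and stress-high, where 3 against 3 libraries cannot go below 0.10. For Adora2a the exact p was 0.767 between control and stress-low, 0.867 between control and stress-high and 0.816 between control and stress-exposed, with smallest possible values of 0.0167, 0.0167 and 0.00117. The group ranges of each gene overlapped in each comparison, which is a description given without the share over all genes.

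**Figure D3:**
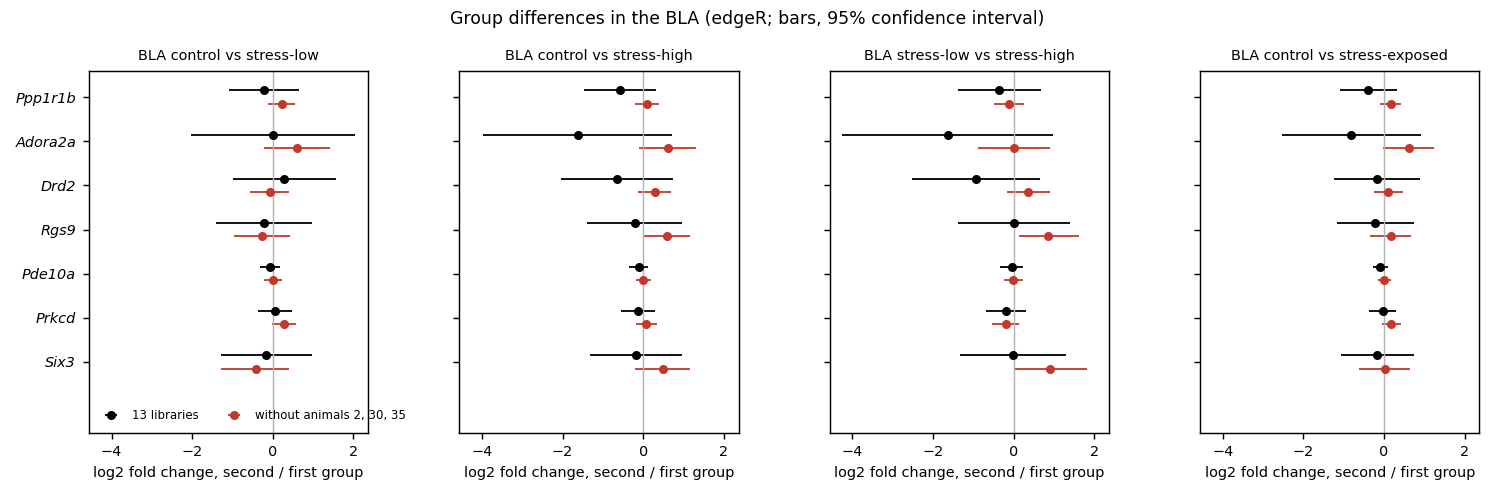
Log2 fold change of the second over the first group for each gene in the 4 BLA comparisons (edgeR), with 95% confidence intervals, with all 13 libraries (black) and without animals 2, 30 and 35 (red). The black intervals all span 0 and are widest for Adora2a. The red ones are narrower, and their centers move to or above 0 for stress-high against control. The red interval of Rgs9 lies above 0 there (0.03 to 1.16), as do those of Rgs9 and Six3 between the stress groups.

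What rose with Adora2a across the 13 BLA libraries was asked gene by gene, with log2(Adora2a TPM + 0.1) as a covariate in edgeR. A slope of 1 means a doubling of the gene per doubling of Adora2a. All 6 other genes had positive slopes that passed, beside 2.11% of 15310 genes called with a positive slope. Since the 7 genes were chosen together as markers, and the libraries fall into a group of 3 and a group of 10, these slopes span the difference between those groups and are a description. Drd2 had the smallest p of all genes (slope 0.58, SE 0.04, adjusted p = 5.13e-07). Ppp1r1b (0.36, SE 0.04, adjusted p = 5.08e-05) and Rgs9 (0.44, SE 0.06, adjusted p = 0.000727) ranked 9 and 40 by p. The slope of Six3 was 0.40 (SE 0.07), that of Prkcd 0.14 (SE 0.03) and that of Pde10a 0.08 (SE 0.02, adjusted p = 0.0456). No slope exceeded 1, so that Adora2a varied more than each of the others.

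The calls, but not the sign of the slopes on Adora2a, depended on the 3 high libraries. Over all genes 498 passed with 13 libraries (323 positive and 175 negative), 71 without animal 2, 6 without animals 2 and 30, and 1 without animals 2, 30 and 35. None of the 6 genes passed among the other 10 libraries, where the slopes were still positive, at 0.33 for Drd2 (SE 0.15), 0.24 for Prkcd (SE 0.09), 0.33 for Six3 (SE 0.30), 0.29 for Rgs9 (SE 0.26), 0.15 for Ppp1r1b (SE 0.12) and 0.04 for Pde10a (SE 0.07), each with adjusted p = 1.0. With Prkcd as the covariate instead, 236 genes passed, with 1.04% of genes called with a positive slope. Adora2a (3.41, SE 0.71, adjusted p = 0.0256), Drd2 (2.00, SE 0.47), Rgs9 (1.77, SE 0.38) and Ppp1r1b (1.3, SE 0.28) were among them, and Six3 (adjusted p = 0.188) and Pde10a (adjusted p = 0.269) were not. Without animal 2, 0 genes followed Prkcd by edgeR. The slopes were then 4.72 for Adora2a (SE 1.55), 2.4 for Drd2 (SE 0.95) and 2.06 for Rgs9 (SE 0.83), each with adjusted p = 0.832, so that the calls and not the size of these slopes depended on that library. The slope of Ppp1r1b fell to 0.58 (SE 0.57, adjusted p = 0.877). Without animals 2, 30 and 35 the slopes on Prkcd were smaller and none passed. They were 1.39 for Adora2a (SE 0.72), 0.11 for Drd2 (SE 0.47), 0.99 for Rgs9 (SE 0.74) and -0.25 for Ppp1r1b (SE 0.32). The size of these slopes thus rested on the 3 high libraries together.

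The 10 genes most like the marker index over the 13 BLA libraries, by Pearson's r of log2(TPM + 0.1) among 13312 named genes with a mean of at least 1 TPM, were Scn4b, PENK, Rasgrp4, Gnal, Nexn, Zfhx4, Strip2, Pdyn, Pde7b and Ksr1 (r = 0.981 down to 0.942, a description). PENK, the opioid precursor of indirect-pathway striatal neurons, was at 1306, 633 and 645 TPM in animals 2, 30 and 35 and at 170 to 361 TPM in the other 10. Gnal, the stimulatory G protein alpha subunit of striatal neurons, was at 107, 82.0 and 71.4 TPM against 33.3 to 59.7 TPM. Pdyn, the dynorphin precursor, was at 52.1, 16.5 and 16.0 TPM against 4.52 to 11.7 TPM, and Scn4b, a sodium channel beta subunit, at 10.9, 6.95 and 6.66 TPM against 1.62 to 3.81 TPM. In all 10 genes, the 3 libraries lay above the other 10. The genes were picked by their likeness to an index that was highest in these 3 libraries, so this pattern came with the choice. The libraries share the punching and sequencing of their set, so that the likeness of these genes is not independent evidence. Among the genes that followed Adora2a most closely outside the 7 were Scn4b (slope 0.44, SE 0.03) and PENK (0.44, SE 0.03), both with adjusted p = 2.55e-06, then Spata13, Chodl and Strip2. With Prkcd as covariate they were Tnc, Zfhx3, Gm5786, Col1a1 and Postn, with adjusted p = 0.00321 for each. Col1a1 and Postn code for extracellular matrix proteins. Col1a1 was at 36.7 TPM in animal 2 and at 0.960 to 2.51 TPM in the 10 libraries other than 2, 30 and 35, and Postn was at 10.04 TPM in animal 2 against 0.120 to 0.640 TPM. Animal 35 was also above these 10, with 7.42 TPM of Col1a1 and 1.79 TPM of Postn.

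Lists of markers for the cells a BLA punch can hold were then counted in the Adora2a slope fit. Over all 15310 genes the median slope was 0.00, with 2.11% called with a positive slope and 175 genes with a negative one. Without animals 2, 30 and 35 no gene of any list passed. The median slope was then 0.07 for the striatal and 0.01 for the central amygdala list. Signs of single genes turned both ways, to -0.25 for Gng7 and to 0.29 for Tac1. Of the striatal projection neuron list (16 genes besides the 7, 15 tested), 11 passed with a positive slope and 0 with a negative one, with a median slope of 0.18. PENK led. Adcy5, the adenylyl cyclase of striatal neurons, had a slope of 0.16 (SE 0.02, adjusted p = 0.000291) and Gng7, a G protein gamma subunit, 0.24 (SE 0.04, adjusted p = 0.00537), while Pde1b, another phosphodiesterase, had 0.06 and did not pass (adjusted p = 0.0503). Tac1 did not follow Adora2a (slope -0.04, adjusted p = 0.834). It was at 5.78 TPM in animal 2 and at 6.44 to 13.0 TPM in the 10 libraries other than 2, 30 and 35. The summed level of the list was 1889, 1087 and 1085 TPM in animals 2, 30 and 35 and 453 to 754 TPM in the other 10. PENK alone, at 1306, 633 and 645 TPM in these animals, made up most of their sums. Drd1, the dopamine D1 receptor of direct-pathway neurons, was at 34.3, 26.8 and 32.7 TPM in these animals against 14.6 to 29.2 TPM, so that it separated them less than Drd2 did.

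Of the central amygdala list (9 of 10 genes found), 3 passed, all positive, with a median slope of 0.11. They were Wfs1 (0.18, SE 0.03, adjusted p = 0.00328), Dlk1 (0.32, SE 0.05, adjusted p = 0.00229) and Nts (0.32, SE 0.07, adjusted p = 0.0202). Besides Wfs1, the most abundant genes of the list were Sst (slope -0.06, adjusted p = 0.259), Cyp26b1 (0.04, adjusted p = 0.589) and Ezr (0.00, adjusted p = 0.982). Sst, Cyp26b1 and Ezr did not pass, and Wfs1 is also made by other forebrain neurons. The summed level was 1101 TPM in animal 2, 829.2 TPM in animal 30 and 755 TPM in animal 35, the last 2 inside the range of the other 10 (665 to 901 TPM). This sum is carried by Sst, which was at 355 to 589 TPM. In animal 2 each gene of the list except Sst lay above the other 10. This ran from Wfs1 (349 TPM), Dlk1 (60.9 TPM) and Nts (25.9 TPM) to Ezr, which was barely above them (41.02 against at most 40.81 TPM). Single genes of the list set animal 30 apart as well: Wfs1 (180 TPM against at most 171 in the other 10), Dlk1 (37.2 against at most 26.0), Nts (18.7 against at most 10.4) and Calcrl (12.7 against at most 11.8). The remaining genes of the list lay inside the range of the other 10 in animal 30. Animal 35 was above the other 10 for Wfs1 (231 TPM) and below them for Sst (355 TPM against at least 399). The rest of the list lay inside their range in animal 35.

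Of the 4 genes of the intercalated cell list, Meis2 (0.35, SE 0.06, adjusted p = 0.00385) and Tshz1 (0.20, SE 0.05, adjusted p = 0.0262), both transcription factors, passed, while Foxp2 (0.37, adjusted p = 0.0551) and OPRM1 (0.06, adjusted p = 0.392) did not. Meis2, which is also a gene of striatal neurons, was at 88.9, 90.2 and 73.1 TPM in animals 2, 30 and 35, close to level like Six3. Among the other 10 it was highest in animal 20 (60.4 TPM) and lowest in animal 22 (16.9 TPM). Six3 had its own highest and lowest levels of these 10 in the same animals, 11.1 TPM in animal 20 and 2.56 TPM in animal 22, and so had Rgs9 (10.8 and 2.45 TPM) and Foxp2 (10.5 and 1.39 TPM). Adora2a did not share this order, at 2.59 TPM in animal 20 and 2.29 TPM in animal 22. Ppp1r1b (69.2 TPM) and Pde10a (29.8 TPM) were instead highest of these 10 in animal 22. Drd2 was lowest in animal 22 but highest in animal 19, and Prkcd had neither animal 20 nor animal 22 at an end. Animals 20 and 22 were singled out after their values were seen. Animal 20 belongs to the stress-high and animal 22 to the stress-low group, whose difference in Six3 and Rgs9 without animals 2, 30 and 35 is given above.

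**Figure D4:**
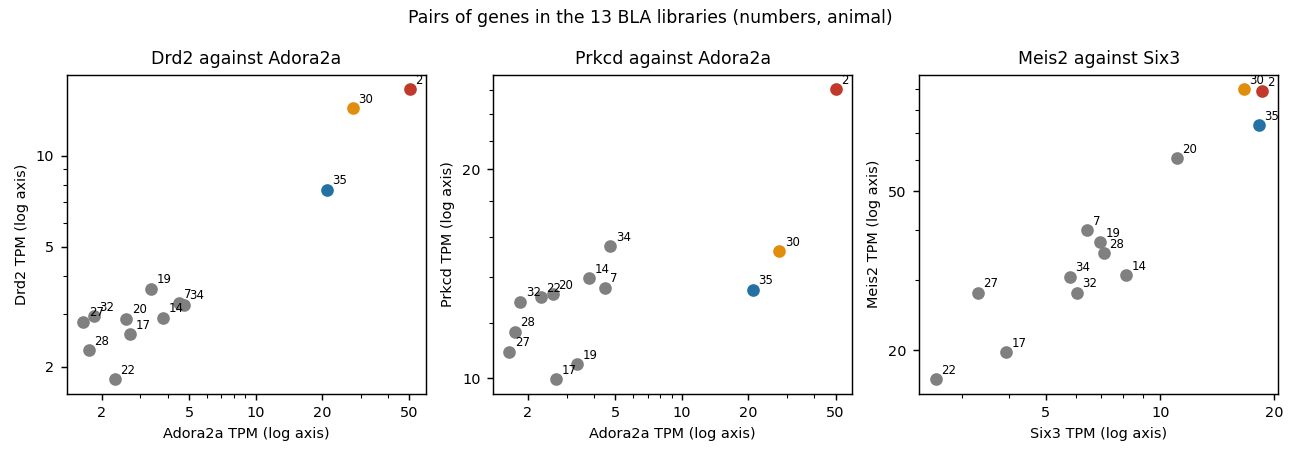
Drd2 against Adora2a, Prkcd against Adora2a, and Meis2 against Six3 in the 13 BLA libraries (TPM, log axes, labels are animal numbers). Animals 2, 30 and 35 (colored) lie far from the others for Adora2a and Drd2, only animal 2 does for Prkcd, and Meis2 and Six3 form a graded series from animal 22 to animals 2, 30 and 35.

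Within the 10 libraries other than 2, 30 and 35, the 7 genes gave little sign of moving together. Of 21 pairs, 13 had a positive Pearson's r of log2(TPM + 0.1), with a median of 0.226 and a range of -0.575 to 0.785 (n = 10, 100000 permutations). The highest r was that of Rgs9 and Six3 (r = 0.785, permutation p = 0.00739, adjusted p = 0.155 over 21 pairs; Spearman's rho = 0.527, permutation p = 0.123, adjusted p = 0.603). It fell to 0.356 without the 2 libraries farthest from the median of Rgs9, so that it rested on these libraries. Adora2a and Drd2 had r = 0.532 (permutation p = 0.113, adjusted p = 0.475) and rho = 0.636 (permutation p = 0.0549, adjusted p = 0.576), with r = 0.384 without the 2 farthest. None of the 21 pairs passed after adjustment.

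The cells expected in a BLA punch moved less. Of the BLA glutamatergic neuron list (6 of 7 genes found), 1 passed with a negative slope, ETV1 (-0.18, SE 0.02, adjusted p = 0.000163), and the median slope was -0.07. ETV1, a transcription factor, was at 75.7, 81.4 and 76.9 TPM in animals 2, 30 and 35, below the 90.2 to 143 TPM of the other 10. Slc17a7, the vesicular glutamate transporter and the most abundant of the list, had a slope of -0.08 (adjusted p = 0.0563), CAMK2A -0.06 and Neurod6 -0.10, none of which passed. The summed list was at 1997, 1786 and 2077 TPM in animals 2, 30 and 35 and at 1864 to 2502 TPM in the others. Animal 30 lay just below that range, and animals 2 and 35 inside it.

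Of the GABA neuron list 2 of 3 genes passed with a positive slope, Gad1, which makes GABA (0.13, SE 0.02, adjusted p = 0.00214), and Slc32a1, which loads it into vesicles (0.18, SE 0.03, adjusted p = 0.00167), while Gad2 did not (adjusted p = 0.225). Of 7 oligodendrocyte genes 4 passed with a positive slope, among them the myelin genes MBP (0.10, SE 0.02, adjusted p = 0.00765) and Mobp (0.11, SE 0.02, adjusted p = 0.0184). The summed oligodendrocyte level was 3202 and 3287 TPM in animals 2 and 30, above the 1869 to 2583 TPM of the other 10, and 2502 TPM in animal 35, inside it. The part of myelinated tissue in the results above was not tested.

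None of the 3 claustrum and endopiriform genes (Ntng2, Gnb4), the 3 astrocyte genes (Slc1a3, Aqp4) or the 3 microglial genes (Csf1r, Aif1) passed, with median slopes of -0.02, 0.00 and -0.01. Of the dentate granule cell list 4 of 6 were tested, and Calb1 passed with a negative slope (-0.20, SE 0.02, adjusted p = 0.000163), a calcium-binding protein that is also made in the amygdala, while C1ql2 did not pass (slope 0.05, adjusted p = 0.797). The choroid plexus list was near absent, with a summed 0.230 to 1.04 TPM in the BLA, Ttr and both identifiers of Otx2 listed at 0 in each BLA library, 1 gene tested (Kl, adjusted p = 0.539) and Kcnj13 at 0 to 0.240 TPM. No gene of any of these lists was called in any of the 4 group comparisons (edgeR, adjusted p under 0.05).

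**Figure D5:**
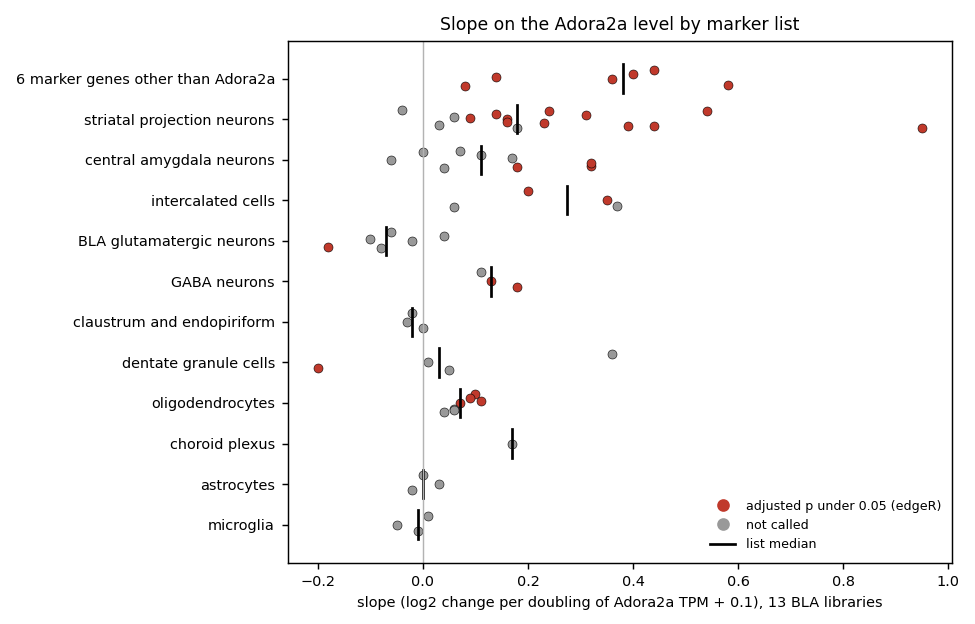
Slope of each tested marker gene on the Adora2a level across the 13 BLA libraries (log2 change per doubling of Adora2a TPM + 0.1), by list, with called genes in red and list medians as bars. The 6 marker genes lie to the right of 0, as does the striatal list apart from Tac1 (-0.04; 11 of 15 striatal genes called), and the BLA glutamatergic list lies at or left of 0 apart from Rspo2 (0.04).

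The 7 genes were also ranked by their loading on the axis along which the BLA libraries differed most. In a principal component analysis of log2(TPM + 1) over 14497 genes, the first component held 21.1% of the variance and gave animal 2 a score of 46.4, with the other 12 between -17.3 and 12.5. Animals 30 (12.4) and 35 (1.2) did not stand apart on it, and stress-high animal 20 scored 12.5. Adora2a had rank 7 of 14497 by its loading on this component, Rgs9 rank 55, Drd2 63, Ppp1r1b 108, Six3 124, Prkcd 496 and Pde10a 1895. Ranked by the fold over the median of the other 10 libraries, Adora2a was number 48 in animal 2, number 38 in animal 30 and number 40 in animal 35. Prkcd was number 570, 3786 and 4869 in the same libraries. The component was fitted with the 7 genes included and mainly set apart animal 2, the highest library for each of them. Animals 2, 30 and 35 were likewise singled out by these levels. Both sets of ranks thus came with the choice and are a description.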

How the data were processed

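Poly-A RNA of 25 libraries was analysed. The authors aligned reads to Rn5 with STAR 2.6.0a and quantified Ensembl build 75 genes with RSEM 1.3.1. The authors deposited 1 long table per region with an expected count, TPM, length and effective length per gene. The deposited FPKM values were not used. The 7 genes, the marker lists and the tests were chosen with earlier results of these data known.

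The deposited expected counts, once rounded, went into quasi-likelihood fits of edgeR 4.0.16 (R 4.3.3) after filterByExpr at 10 counts and TMM scaling. Adjustment was by Benjamini-Hochberg over all tested genes, at 0.05. BLA groups were tested as 3 means over 13 libraries. The region fit held the animal as a block over 22 libraries. Slope fits used log2(TPM + 0.1) of Adora2a or Prkcd. TPM was compared by exact permutation over libraries (scipy 1.17.1). Libraries are separate animals, and punches of 1 animal were pooled. The study left out 1 control library per region, while all mapped libraries were kept here. By the paper, the hippocampal sample had low RNA quality, was re-extracted and did not cluster with the others. The amygdala sample did not cluster either. The paper's text gives no animal numbers for them. On the first principal components here, DG animal 35 (score 56.0) and BLA animal 2 (46.4) lay farthest out.

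Named genes were the 7, up to 4 of highest mean BLA TPM from the striatal, central amygdala, intercalated and BLA lists and 2 from others, the 10 most like the index and 5 per slope fit. Drd1, Dlk1, Nts, Calcrl, Tac1, Slc32a1, Ttr, Otx2 and Rspo2 outside this rule were named after their values were seen. Alternatives used DESeq2 1.42.0, limma 3.58.1, RLE size factors, no filter, the replicate number of the titles as a block and left-out libraries. Leaving out animals 2, 30 and 35 (2 and 35 in the region fit) together was chosen after seeing the data. The fits were tested on simulated counts. A gene of the oligodendrocyte list is not reported here.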

Additional observations from a re-analysis of the deposited data

Results flagged for a closer look

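In groups of 4 to 10 libraries, the gap of the highest or lowest library to its neighbor was compared with Dixon's 95% limit. Of 13 group and gene combinations with a spread, 5 were past it. Chance flags a single combination about 1 time in 20. The combinations share libraries, so the 5 flags are not independent and cannot be weighed against that rate. Among them were control animal 2 in the BLA as the highest library, for Ppp1r1b (231.12 TPM, gap of 0.573 of the range against a limit of 0.568), Adora2a (50.22 TPM, 0.599), Drd2 (16.62 TPM, 0.622) and Prkcd (26.11 TPM, 0.755). Since the gap is taken to the nearest library, the second high control library (animal 35) keeps the first 3 close to the limit, while for Prkcd animal 35 lies with the others. The last was Prkcd in the DG of control animal 17, at 2.42 TPM (gap of 0.711 of the range against a limit of 0.625), which rests on 55 counts. Stress groups had 3 libraries and were not tested, so that stress-low animal 30 could not be assessed in this way.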

How the results depend on the processing

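The 7 genes were past the threshold in no group comparison under any setting. Counts of called genes between BLA groups were 0 to 1 when single libraries were left out (1 without stress-high animal 20, in the 3 comparisons that hold it), 1 without animals 2, 30 and 35 (control against stress-high), 2 and 1 with DESeq2 (control against stress-high, stress-low against stress-high) and 1 with limma on log2(TPM + 0.1) in the other 2 comparisons and between the stress groups. Genes following Adora2a numbered 796 without the filter, 71 to 661 with 1 library left out (71 without animal 2), 6 without the 2 farthest libraries and 1 without animals 2, 30 and 35, which leaves 10 samples. Those following Prkcd numbered 552, 0 to 368 (0 without animal 2, 368 without stress-low animal 34), 0 and 0. The region counts stayed within 1.5 times.

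Signs of log2 differences that were not called turned as follows, and the cause was not tested. Between control and stress-low, without animals 2, 30 and 35 Ppp1r1b was 0.22, Drd2 -0.08 and Pde10a 0.01, with animal number above 20 as a covariate Ppp1r1b was 0.13, Rgs9 0.04 and Pde10a 0.01, and with DESeq2 Adora2a was -0.01. Leaving out 1 library gave -0.45 to 0.17 for Ppp1r1b, -1.63 to 1.03 for Adora2a, -1.01 to 0.83 for Drd2, -1.07 to 0.22 for Rgs9, -0.12 to 0.00 for Pde10a, -0.02 to 0.23 for Prkcd and -1.09 to 0.24 for Six3. Between control and stress-high, without animals 2, 30 and 35 Ppp1r1b was 0.10, Adora2a 0.61, Drd2 0.28, Rgs9 0.60, Pde10a 0.00, Prkcd 0.08 and Six3 0.48, limma on log2(TPM + 1) and log2(TPM + 0.1) gave 0.01 and 0.03 for Rgs9 and 0.02 and 0.04 for Six3, and 1 library left out gave -0.39 to 0.23 for Rgs9, -0.27 to 0.04 for Prkcd and -0.36 to 0.09 for Six3. Between the stress groups, without animals 2, 30 and 35 Adora2a was 0.01, Drd2 0.36 and Six3 0.91, Rgs9 was -0.52 with the animal number covariate, Six3 was 0.02 with DESeq2, 0.25 and 0.32 with limma, and 1 library left out gave -2.09 to 0.00 for Adora2a, -1.34 to 0.36 for Drd2, -0.39 to 0.86 for Rgs9 and -0.41 to 0.91 for Six3. Between control and stress-exposed, without animals 2, 30 and 35 the values were 0.16 (Ppp1r1b), 0.61 (Adora2a), 0.10 (Drd2), 0.17 (Rgs9), 0.01 (Pde10a), 0.18 (Prkcd) and 0.02 (Six3), with animal 35 as stress-exposed 0.14 (Drd2), 0.08 (Rgs9), 0.00 (Pde10a) and 0.33 (Six3), and with 1 library left out -1.63 to 0.22 (Adora2a), -0.83 to 0.36 (Drd2), -0.64 to 0.23 (Rgs9), -0.11 to 0.13 (Prkcd) and -0.63 to 0.10 (Six3).

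The title numbers do not pair the BLA libraries (same-numbered libraries had correlations of -0.121 to 0.057 of their deviations from the group means). With them as a block 0 genes were called in each comparison and the values that turned sign were 0.03 (Ppp1r1b), 0.11 (Rgs9) and 0.19 (Six3) for stress-low against control, 0.05 (Rgs9) and 0.14 (Six3) for stress-high against control, -0.07 (Rgs9) between the stress groups, and 0.14 (Adora2a), 0.03 (Drd2), 0.08 (Rgs9), 0.00 (Prkcd) and 0.17 (Six3) for stress-exposed against control. In the region fit, Rgs9 turned to -0.20 without animals 2 and 35 and ranged from -0.09 to 0.24 with 1 animal left out, and Pde10a was -0.02 without the filter, -0.01 with limma on both scales, -0.14 without animals 2 and 35, -0.04 with no block and -0.09 to 0.06 with 1 animal left out. Ppp1r1b lost its call with no block (-0.29, adjusted p = 0.159 by edgeR). The slopes on Prkcd turned to -0.25 (Ppp1r1b) and -0.11 (Pde10a) without animals 2, 30 and 35. The marker index of each library moved by less than 1 SD under 9 alternatives, and the median r of the 21 pairs was 0.76 with all 13 libraries, against 0.23.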
